A study of Mus musculus with 6 samples.

Results

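The genes described here encode 4 families of membrane transporters for small organic solutes: the organic anion transporting polypeptides (*Slco*), the organic cation, carnitine and organic anion transporters (*Slc22a*), the monocarboxylate transporters (*Slc16a*) and the sodium phosphate, vesicular and lysosomal anion transporters (*Slc17a*). The members were taken as every row of the deposited comparison of wild-type and knockout liver whose symbol begins with 1 of these 4 stems. This gave 47 of the 16123 genes in the table, of which 9 were *Slco*, 19 *Slc22a*, 12 *Slc16a* and 7 *Slc17a* genes. The rule used names and no measured value.

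The study compared the liver of *Txndc5*-deficient mice with that of wild-type mice by poly-A RNA sequencing, in 6 libraries. TXNDC5 is a protein disulfide isomerase of the endoplasmic reticulum. The WT group was C57BL/6Rj and the KO group carried the allele C57BL/6JRj-Txndc5<em2Mdnp>/Ciba, in which Cas9 removed exon 3 of *Txndc5* in the zygote. All KO mice descended from 1 male founder, so the allele was studied in a single line. According to the paper, the males of both genotypes came from crosses of heterozygous mice. Both groups were males of 2 months that ate a purified chow diet for 4 weeks and were fasted for 16 h before death. Each library was made from pooled RNA of 3 mice, with 3 WT pools and 3 KO pools. Clean reads ran from 44.04 to 46.05 M per library, and 62.2 to 65.7% of them mapped to a single place.

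Liver clears drugs, bile acids, bilirubin, hormones and metabolites from portal blood, and much of that uptake runs through carriers of these families in the hepatocyte's sinusoidal membrane. SLCO carriers take up large anions such as conjugated bile acids and bilirubin. SLC22A carriers handle organic cations, carnitine and smaller organic anions. The SLC16A family holds the proton-linked carriers of lactate, pyruvate and ketone bodies, which leave the liver during a fast, and also carriers of creatine and aromatic amino acids. SLC17A proteins move phosphate, urate, sialic acid, glutamate or nucleotides across the plasma membrane or into organelles.

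The upstream DNA of the 6 members whose deposited values differed most between genotypes is shown first, because 3 of them belong to 1 gene cluster and differ from the other 3 in base composition. Each run is the 250 bases before the RefSeq start of the gene in build GRCm38.p6, on the strand of the gene, 5′ to 3′. Capitals mark matches, on either strand, to 4 motifs that were searched: GTTAAT (the core of sites of HNF1, a factor of hepatocyte genes), AGGTCA (the core of nuclear receptor sites), direct repeat 1 (that core written again after 1 further base, the form bound by HNF4, so each match also counts as AGGTCA) and TTCNNNGAA (the STAT site). The regions are chr6:141629268-141629517 (+) for *Slco1b2*, chr6:141946963-141947212 (-) for *Slco1a1*, chr6:141856221-141856470 (-) for *Slco1a4*, chr13:34345219-34345468 (-) for *Slc22a23*, chr17:12507705-12507954 (-) for *Slc22a3* and chr11:53891704-53891953 (-) for *Slc22a5*.
Slco1b2: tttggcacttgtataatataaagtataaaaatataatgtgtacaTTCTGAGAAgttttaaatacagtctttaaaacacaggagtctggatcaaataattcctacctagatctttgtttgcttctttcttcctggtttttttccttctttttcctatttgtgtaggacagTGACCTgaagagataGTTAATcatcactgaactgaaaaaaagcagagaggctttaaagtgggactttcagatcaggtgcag
Slco1a1: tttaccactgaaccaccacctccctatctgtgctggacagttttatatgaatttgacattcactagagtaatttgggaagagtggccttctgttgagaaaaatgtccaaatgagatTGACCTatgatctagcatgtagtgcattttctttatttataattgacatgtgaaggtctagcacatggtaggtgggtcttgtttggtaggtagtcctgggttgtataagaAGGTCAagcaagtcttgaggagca
Slco1a4: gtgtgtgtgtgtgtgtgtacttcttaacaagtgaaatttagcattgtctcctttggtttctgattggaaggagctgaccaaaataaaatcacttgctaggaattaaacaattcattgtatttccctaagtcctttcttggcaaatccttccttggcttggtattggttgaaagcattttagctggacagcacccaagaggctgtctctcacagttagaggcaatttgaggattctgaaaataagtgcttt
Slc22a23: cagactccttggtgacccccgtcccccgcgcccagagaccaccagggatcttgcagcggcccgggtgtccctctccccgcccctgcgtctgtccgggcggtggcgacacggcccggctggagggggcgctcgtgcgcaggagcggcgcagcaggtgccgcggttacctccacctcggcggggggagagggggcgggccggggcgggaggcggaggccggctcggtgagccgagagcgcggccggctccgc
Slc22a3: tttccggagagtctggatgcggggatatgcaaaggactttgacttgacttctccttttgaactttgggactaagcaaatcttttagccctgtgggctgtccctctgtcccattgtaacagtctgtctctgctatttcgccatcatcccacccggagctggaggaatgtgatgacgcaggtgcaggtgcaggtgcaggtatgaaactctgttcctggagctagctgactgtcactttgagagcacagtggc
Slc22a5: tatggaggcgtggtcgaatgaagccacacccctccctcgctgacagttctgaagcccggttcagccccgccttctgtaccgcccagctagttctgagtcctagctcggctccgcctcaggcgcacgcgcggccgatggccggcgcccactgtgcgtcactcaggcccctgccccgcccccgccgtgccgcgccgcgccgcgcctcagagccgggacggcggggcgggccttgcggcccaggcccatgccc
The 3 *Slco1* promoters were poor in G and C, at 33.6% for *Slco1b2*, 40.4% for *Slco1a1* and 39.2% for *Slco1a4*, and held no CpG. The promoters of *Slc22a23* and *Slc22a5* were rich in G and C, at 78.4 and 73.6%, with CpG at 0.84 and 0.91 of the number that their base composition gives, and *Slc22a3* stood at 51.2%, between these and the *Slco1* promoters. The median over the 9104 promoters of genes with a mean deposited value of at least 10 was 60%. *Slco1b2* held a STAT site, an AGGTCA and a GTTAAT, *Slco1a1* held AGGTCA at 2 places, and the other 4 windows held no match.

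A promoter was found for 35 members, of which 24 had a mean deposited value of at least 10. Of these 24, 2 held GTTAAT against 4.00% of the 9104 promoters, 3 held AGGTCA against 11.1%, 0 held direct repeat 1 against 0.0549% and 4 held the STAT site against 5.95%. Over all 27025 promoters of the RefSeq table the shares were 6.52, 13.8, 0.037 and 7.18%. The matches describe letters in a window and were not read as binding sites.

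The deposited table holds 1 value per genotype, made from reads divided by a size factor per library. For weakly expressed genes these values were not the plain means of each genotype's pools. *Slc22a21*, for example, had 1.39 in WT and 1.93 in KO, where the reads worked out per library gave means of 0.65 and 2.67. For abundant genes this could not be checked. *Txndc5* itself had a deposited value of 2697 in WT and 90.8 in KO, 29.7-fold lower in KO, in the direction of the labels. Because the abundant genes have no value per pool, their differences are given as ratios with no error and no test. Weakly expressed genes allowed whole reads per library to be worked out from the values, and these are given further on with a test. In whole liver, fewer cells of a type and less RNA per cell cannot be told apart.

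The defining markers of hepatocytes were abundant in both genotypes, with a summed deposited value of the 7 genes of 2759600 in WT and 2575100 in KO and ratios from -0.40 to 0.20 on the log2 scale. The red cell list was higher in KO in 6 of 6 genes, 3 of them by at least 1.5-fold, and its summed value went from 118830 to 180430. Of the Kupffer cell list 4 of 6 genes were higher, 1 past 1.5-fold (*Marco*, 47.8 to 73.5), and of the stellate cell list 3 of 6, 1 past 1.5-fold (*Col1a1*, 85.6 to 144). Endothelial markers were higher in 3 of 6 genes and cholangiocyte markers in 2 of 5, with none past 1.5-fold. No neutrophil marker reached a mean of 10 (summed value 15.9 in WT and 15.3 in KO), and 0 of the 5 kidney tubule markers was in the table. The part of these cells in the transporter values was not tested.

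Of the 47 transporter genes, 34 had a mean deposited value of at least 10, and these are compared first. The value was higher in KO for 20 of them and lower for 14, with a median log2 ratio (KO over WT) of 0.04, against -0.05 over all 11367 genes of that level. Of all these genes 4803 were higher in KO and 6564 lower, which is also the background for the direction counts of families and lists. Only 1 member was higher in KO by at least 1.5-fold, where 1.57% of all genes were, and only 1 was lower, where 5.79% were. Together the 2 made 5.88% of the 34, beside 7.35% of all genes. Among the 24 members with a mean of at least 100 the same 2 genes made 8.33%, beside 3.91% of all genes of that level (1.18% higher and 2.73% lower). For 22 of the 34 members (64.7%) the log2 ratio was under 0.25 in size, as for 64.8% of all genes, and for 5 members (14.7%) it was at least 0.5, as for 10.4% of all genes. As a list, then, the members' ratios were spread about as widely as those of the other genes.

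**Figure D1:**
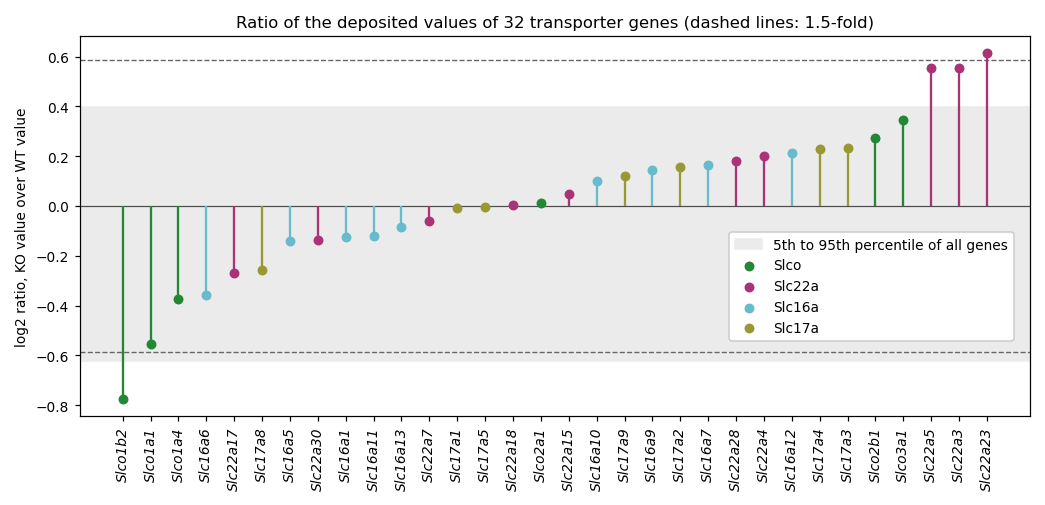
Log2 ratio of the KO to the WT deposited value for 32 of the 34 transporter genes with a mean of at least 10, in rising order and coloured by family, with dashed lines at 1.5-fold and a grey band from the 5th to the 95th percentile of all genes (-0.62 to 0.40). *Slco1b2* lies below the band at -0.77, 3 *Slc22a* genes lie above it at 0.55 to 0.61, and the other 28 lie within it.

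The *Slco* family had the lowest median ratio of the 4 families, -0.18 over 6 genes, and the 3 genes that were lower in KO were the 3 *Slco1* carriers. *Slco1b2*, the hepatocyte carrier of bile acids, bilirubin and statins, had a deposited value of 2920.3 in WT and 1708 in KO. Its value was 1.71-fold lower in KO (log2 ratio -0.77), the farthest from 0 of any member, and 2.67% of all genes were lower in KO by more. *Slco1a1*, a carrier of steroid conjugates that is more abundant in male than in female liver, had 1431 in WT and 973 in KO (1.47-fold lower, log2 ratio -0.56). *Slco1a4*, a carrier of digoxin and bile acids, had 549 in WT and 423 in KO (1.30-fold lower, log2 ratio -0.38). *Slco1b2* was thus past 1.5-fold and *Slco1a1* just short of it.

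The other *Slco* genes did not share that direction. *Slco2b1*, a carrier of sulfated steroids, had 3254 in WT and 3934 in KO (log2 ratio 0.27). *Slco2a1*, the prostaglandin transporter, had 1468 and 1482, which is 1.01-fold. *Slco3a1*, a widely expressed family member, had 46.6 and 59.2 (log2 ratio 0.34), and its reads per library are given below. Summed over the 9 *Slco* genes, the deposited values came to 9673 for WT and 8584 for KO (log2 ratio -0.17).

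The *Slc22a* family held the members with the largest positive ratios. *Slc22a23*, an orphan member with no settled substrate, had a deposited value of 865 in WT and 1322 in KO (1.53-fold higher, log2 ratio 0.61). *Slc22a3*, the organic cation transporter OCT3 of monoamines, had 88.8 and 131 (1.47-fold, log2 ratio 0.56). *Slc22a5*, the carnitine transporter OCTN2 whose substrate carries fatty acids into mitochondria, had 802 and 1177 (1.47-fold, log2 ratio 0.55). Of all genes, 1.34% were higher in KO by more than *Slc22a23*, 1.75% by more than *Slc22a3* and 1.79% by more than *Slc22a5*. Counting both directions, 6.48 to 8.24% of all genes had a ratio farther from 0, since more genes were lower than higher in KO by such amounts.

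Other *Slc22a* genes had nearly equal values in both genotypes. *Slc22a18*, an imprinted gene of an organic cation carrier, had 2155 in WT and 2162 in KO (log2 ratio 0.0043), the closest to 0 of the 34. *Slc22a7*, the organic anion transporter OAT2, had 1359 and 1304 (log2 ratio -0.06), and *Slc22a30*, a rodent gene of the organic anion branch, had 257 and 234 (log2 ratio -0.14). With the 4 weakly expressed genes given below, 8 of the 11 *Slc22a* genes were higher in KO and 3 lower, with a median of 0.05.

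The *Slc16a* genes split evenly, with 5 of 10 higher and 5 lower in KO, a median log2 ratio of 0.01 and none past 1.5-fold. *Slc16a10*, a carrier of aromatic amino acids, had a deposited value of 1138 in WT and 1218 in KO, and *Slc16a12*, a creatine transporter, had 118 and 137, both higher in KO at 0.10 and 0.21 on the log2 scale. The 2 classical carriers of lactate and ketone bodies differed little, and in opposite directions: *Slc16a1* (MCT1) had 547 and 501 (-0.13), and *Slc16a7* (MCT2) had 286 and 320 (0.16). *Slc16a5* (MCT6) had 808 and 733 (-0.14). *Slc16a11*, an endoplasmic reticulum member known from human diabetes genetics, had 192 and 177 (-0.12). For these 6 genes 42.3 to 70.2% of all genes had a ratio farther from 0.

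In the *Slc17a* family 4 of 7 genes were higher in KO and 3 lower (*Slc17a1* and *Slc17a5* turn to higher when all ratios are centred on the median of all genes), with a median log2 ratio of 0.12 and none past 1.5-fold. The phosphate and organic anion carriers *Slc17a2*, *Slc17a3* and *Slc17a4* had deposited values of 859 and 959, 207 and 243, and 125 and 146 in WT and KO, which is 0.16, 0.23 and 0.23 on the log2 scale. *Slc17a5*, sialin, the lysosomal exporter of sialic acid, had 232 and 231 and did not separate the genotypes. *Slc17a9*, the vesicular nucleotide transporter, had 97.4 and 106 (0.12). *Slc17a8*, a vesicular glutamate transporter that the naming rule left out and that is given here to complete the family, had 107 and 89.6 (-0.26).

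**Figure D2:**
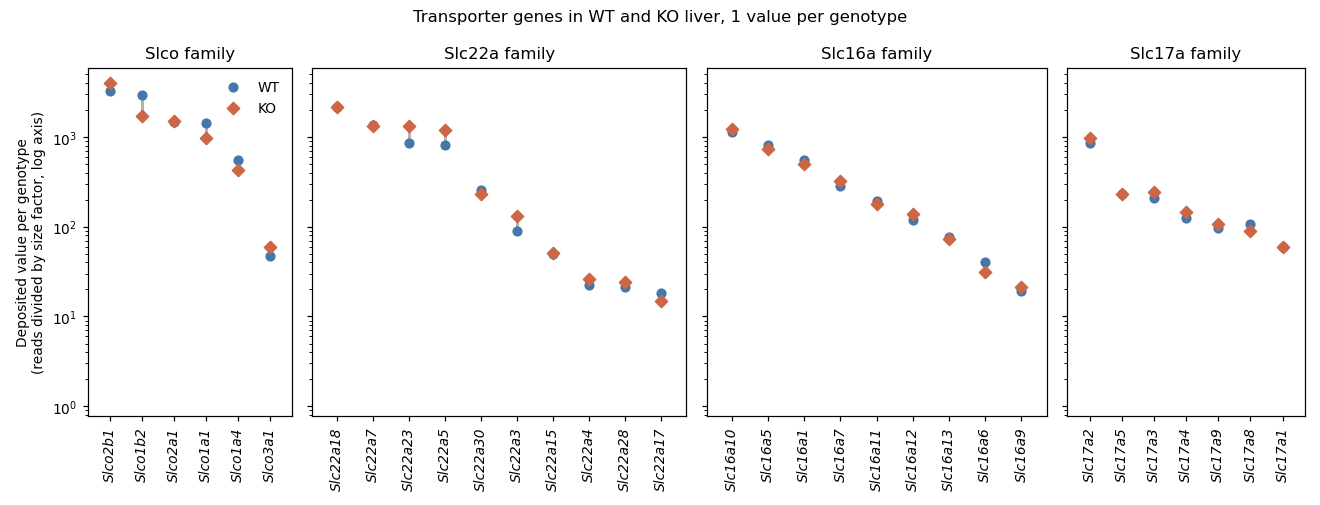
Deposited value in WT (blue circles) and KO (red diamonds) for 32 of the 34 transporter genes with a mean of at least 10, by family and in falling order, on a log axis in reads divided by size factor, with 1 value per genotype and so no error bars. The 2 points overlap for most genes, and the gap is widest for *Slco1b2* (2920.3 in WT, 1708 in KO).

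Compared per length, as the mean of both deposited values per kilobase of gene length, *Slc22a18* stood at 1411, *Slco2b1* at 816, *Slco1b2* at 702 and *Slc22a7* at 663. *Slco2a1* followed at 366, *Slc22a5* at 317, *Slc17a2* at 306 and *Slco1a1* at 303. Of these 8 genes only *Slco1b2* differed by 1.5-fold. The summed deposited values of all 47 members came to 32345 for WT and 33020 for KO (log2 ratio 0.03), against -0.09 for all genes.

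**Figure D3:**
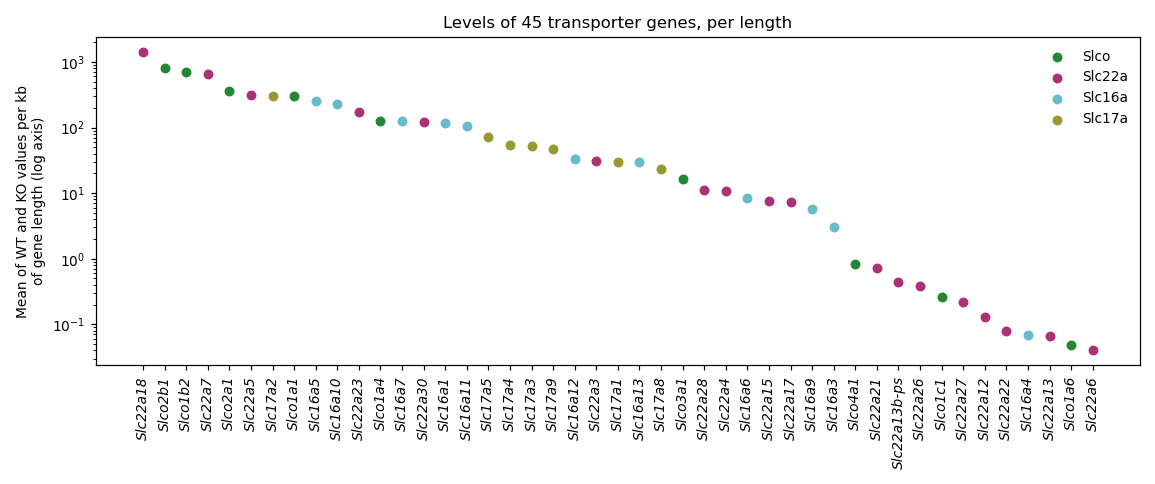
Mean of the WT and KO deposited values per kilobase of gene length for 45 transporter genes, in falling order on a log axis, coloured by family. *Slc22a18* stands at 1411, and the 13 genes with a mean value under 10 take the last places from *Slc16a3* on.

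Several members are neighbours in the genome (coordinates in GRCm38 from the GENCODE annotation, which placed 46 of the 47), and the ratios of 6 of the 7 clusters are given, taking members within 500 kb of each other. The *Slco1* cluster on chromosome 6 (141524368 to 142208521) holds *Slco1c1*, *Slco1b2*, *Slco1a4*, *Slco1a1* and *Slco1a6*. All 3 of its genes with a mean of at least 10 were lower in KO, from -0.77 to -0.38 on the log2 scale. The cluster on chromosome 11 (53864542 to 54028090) holds *Slc22a5*, *Slc22a21* and *Slc22a4*, and both genes of that level were higher, at 0.55 and 0.20. The *Slc17a1* to *Slc17a4* cluster on chromosome 13 (23806993 to 23915009) ran from -0.01 to 0.23. On chromosome 19 (7781041 to 8628299) the 2 genes of that level among 5 members went opposite ways, *Slc22a28* at 0.18 and *Slc22a30* at -0.14. The pair *Slc16a11* and *Slc16a13* on chromosome 11 (70212752 to 70221064) was at -0.12 and -0.09. *Slco4a1* and *Slc17a9* on chromosome 2 (180456245 to 180742280) held 1 gene of that level, *Slc17a9* at 0.12. *Slc22a23* (34179158 to 34345182) lies on the same chromosome as *Txndc5*, 4.25 Mb from it, and the *Slc17a* cluster 14.6 to 14.7 Mb from it.

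Reads cannot always be told apart between near copies, so the transcripts of the members were compared in stretches of 100 bases. For *Slc22a5*, 13.7% of the stretches also occur in *Slc22a21*, which had a mean deposited value of only 1.66. *Slc22a28* and *Slc22a30* share 37.0 and 21.1% of their stretches with each other, so their separate values are uncertain. *Slco1a1* and *Slco1a4* share 0.814 and 1.07% with family genes, and *Slco1b2*, *Slc22a23* and *Slc22a3* share 0.

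The reads of each library were recovered for 22 members, 9 of them with a mean of at least 10. Recovered libraries carry no pool number and are called a, b and c within each genotype, in the order of falling size factor (1.31, 1.04 and 0.886 in KO, and 1.22, 0.879 and 0.818 in WT). Values below are normalised reads, that is reads divided by the size factor, and the difference is tested by limma on log2(normalised reads + 1) over the 3307 genes with 60 to 400 normalised reads in sum, with Benjamini-Hochberg adjustment. Over genes with sums up to 400, the recovered reads came to 170039, 109082 and 90034 in KO libraries a, b and c. In WT they came to 196805, 97402 and 84664. Division by the size factors did not level these totals, and WT library a, then KO library a, stayed highest. A high value in WT library a is therefore not particular to a single gene. With reads scaled to equal totals the genotypes still overlapped in all 8 members tested. A single gene is also given an exact two-sided permutation test, whose smallest p with 3 against 3 libraries is 0.1. The sources used here do not say whether the pools differed in litter or handling, so the p-values measure only the spread between these pools, part of which may be technical.

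*Slco3a1* had 49.5, 62.8 and 68.9 normalised reads in KO libraries a, b and c and 54.7, 35.3 and 46.5 in the WT libraries. The KO mean was 60.4 ± 9.89 and the WT mean 45.5 ± 9.76 (SD, n = 3), and the groups overlapped because WT library a lay above KO library a. The log2 difference of 0.41 (SE 0.40) had an adjusted p of 0.9992 in limma.

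*Slc22a4*, the ergothioneine transporter OCTN1, had 23.6, 33.8 and 22.6 in KO and 34.3, 19.3 and 12.2 in WT. WT library a was the highest of the 6 and WT library c the lowest, so the genotypes overlapped fully (log2 difference 0.36, SE 0.47). *Slc22a28*, a rodent organic anion branch gene, had 31.2, 18.3 and 23.7 in KO and 23.7, 9.10 and 29.3 in WT, again with overlap, WT library b standing low (0.34, SE 0.51). *Slc22a17*, proposed as a receptor of lipocalin 2, had 9.14, 16.4 and 18.1 in KO and 18.0, 15.9 and 22.0 in WT. Here KO library a was lowest and the others lay together (-0.38, SE 0.42), and without KO library a the log2 difference was -0.096. *Slc22a15*, a carrier of zwitterions such as ergothioneine, had 54.1, 58.9 and 41.8 in KO and 53.9, 35.3 and 59.9 in WT, with the lowest and the highest library both in WT (0.07, SE 0.41).

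*Slc16a6*, a carrier known as an exporter of ketone bodies in fish liver, had 28.2, 28.0 and 35.0 in KO and 53.9, 46.6 and 22.0 in WT. WT libraries a and b lay above all KO libraries and WT library c below them, and the difference of -0.33 (SE 0.45) was smaller than its error. *Slc16a9*, a carrier of carnitine and urate, had 22.9, 23.2 and 19.2 in KO and 18.8, 23.9 and 14.7 in WT, with overlap (0.20, SE 0.39). *Slc16a13*, a lactate carrier, had 64.0, 65.7 and 89.2 in KO and 75.1, 70.5 and 88.0 in WT. Its sum of 453 was above the limma range, and its means of 73.0 ± 14.1 in KO and 77.9 ± 9.09 in WT (SD, n = 3) gave an exact permutation p of 0.6.

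*Slc17a1*, a renal and hepatic phosphate and urate carrier, had 51.1, 86.9 and 38.4 in KO and 85.7, 40.9 and 50.1 in WT. Both genotypes spanned the same range, with means of 58.8 ± 25.2 in KO and 58.9 ± 23.7 in WT (SD, n = 3), and the log2 difference was -0.02 (SE 0.48).

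**Figure D4:**
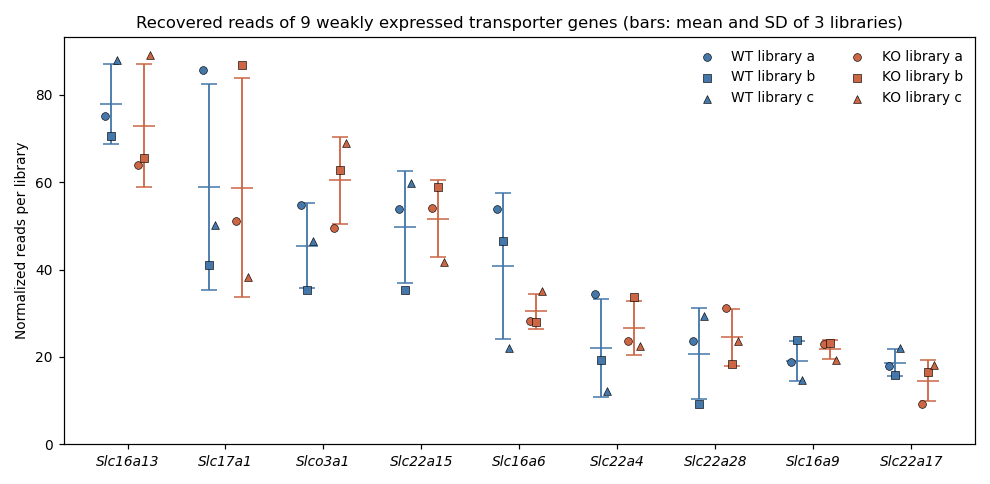
Normalised reads per recovered library for the 9 transporter genes with a mean of at least 10 whose reads could be recovered, WT in blue and KO in red, with the symbol naming library a, b or c of each genotype and bars giving the mean and SD of 3 libraries. The genotypes overlap in every gene shown, and *Slc17a1* has the largest spread (SD 25.2 in KO and 23.7 in WT).

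Of the 8 members in the limma range 0 passed an adjusted p of 0.05, where 1 of all 3307 genes did (0.0302%), and 0 had an unadjusted p under 0.05, where 1.91% of all genes did. Their log2 differences ran from -0.38 to 0.41, 5 positive and 3 negative (6 and 2 with reads scaled to equal totals, where *Slc17a1* turned positive), around a median of 0.14, beside -0.07 for all genes, with standard errors of 0.39 to 0.51. Unadjusted p in limma was 0.326 to 0.975, and the adjusted p was 0.9992 for all 8. In none of the 8 did the 3 KO libraries lie all above or all below the 3 WT libraries, where they did in 5.72% of all genes (3.08% above and 2.63% below). Over the 9 genes the exact permutation p ran from 0.2 to 1. Leaving out a single library turned the sign of *Slc17a1* (0.29 without WT library a), *Slc22a15* (-0.15 without WT library b) and *Slc22a28* (-0.14 without WT library b). The other 5 kept their sign, but each moved by over 1.5 times without some library. *Slc16a6* ran from -0.71 without WT library c to -0.084 without WT library a, with -0.19 without WT library b. *Slc22a4* ran from 0.024 without WT library c to 0.73 without WT library a, with 0.19 without KO library b. *Slc16a9* ran from 0.031 without WT library c to 0.36 without WT library b. *Slco3a1* was 0.24 without WT library b, and *Slc22a17* was -0.096 without KO library a. In every one of these fits the single differences had p of at least 0.140 in limma.

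For the same genes the deposited ratio was mostly closer to 0 than the ratio of the recovered means. It was 0.34 against 0.41 for *Slco3a1*, -0.36 against -0.43 for *Slc16a6* and -0.27 against -0.36 for *Slc22a17*, and of the 9 genes only *Slc17a1*, at -0.01 and 0.00, was the other way. For most of these members the deposited ratio is therefore smaller than the reads give.

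The other 13 members had a mean deposited value under 10, and their reads were all recovered. They were 3 *Slco*, 8 *Slc22a* and 2 *Slc16a* genes, among them carriers best known from kidney or brain. In 9 of them 5 or fewer reads were found in all 6 libraries together, and in 5 a single read. The most, 43 reads, were of *Slc16a3* (the lactate exporter MCT4 of glycolytic cells), which was singled out after its values were seen, with 8.38, 3.86 and 4.52 normalised reads in KO and 4.90, 9.10 and 12.2 in WT, and the groups overlapped. The same holds for the choice of *Slc22a21*, a close relative of the carnitine transporter, which was the 1 gene of the 13 whose libraries did not overlap (7.69%, beside 4.88% of the 4756 genes with under 60 normalised reads in sum, and 2.35% with all KO libraries above). It had 5, 2 and 2 reads in KO libraries a, b and c and 1, 1 and 0 in the WT libraries, with an exact permutation p of 0.1, the smallest that this design allows. With no lower limit on the sum of reads, limma gave it a log2 difference of 1.19 (SE 0.51), an unadjusted p of 0.0403 and an adjusted p of 0.964. These 11 reads are too few for a fold, and 11.8% of the stretches of *Slc22a21* also occur in *Slc22a5*. The 5 reads of *Slc22a13b-ps* all fell in KO library a and the 4 reads of *Slco1c1* all in WT library c, so for both a single library decided which genotype had the reads (both were also singled out afterwards).

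Genes that work beside these carriers were listed for comparison: 19 other bile acid and drug transporters, 13 partners of monocarboxylate transport and enzymes of lactate and ketone bodies, and 12 scaffold proteins and regulators. Of the 44 genes 42 were in the table and 35 had a mean deposited value of at least 10. Of these 35, 23 were higher in KO and 12 lower, with a median log2 ratio of 0.08 and a range from -0.42 to 0.50, and 0 were past 1.5-fold, where 7.35% of all genes were. The 13 measured bile acid and drug transporters had 9 higher and 4 lower (median 0.10), the 10 monocarboxylate partners 5 and 5 (median 0.01), and the 12 scaffold proteins and regulators 9 and 3 (median 0.08). None of these companions had a ratio as far from 0 as *Slco1b2*, *Slc22a23*, *Slc22a3*, *Slc22a5* or *Slco1a1*.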

How the data were processed

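Poly-A RNA of 6 liver pools (3 WT, 3 KO) was sequenced by the study. The submitters' processing notes name HISAT2, StringTie, Cufflinks, GATK, Bowtie2, RSEM and the build mm10, with no version. The deposited comparison table gives, per gene, a length and 1 signal value per genotype, which the authors made from reads divided by size factors. For weakly expressed genes the sum of the 2 values follows the reads of all 6 libraries, but neither value is the mean of its own 3 libraries. For weakly expressed genes the 2 values lie closer together than the means of the recovered reads, so their ratios understate a difference. The table also holds the authors' log2 fold changes, p-values and adjusted p-values, and these columns were not used. The ratios of the 2 values are nevertheless not independent of the authors' fold changes. For *Txndc5* and *Slc4a1* the log2 ratio of the 2 values was -4.89 and 1.47, the same as the paper reports from its RNA sequencing. Clean reads and percent mapped came from the deposited mapping table of counts and percentages per library (44.04 to 46.05 M clean reads), which limits precision for weak genes. The values show steps of 1 read, so the reads of 6 libraries were recovered by enumerating whole reads whose weighted sum equals 3 times the sum of the 2 values, within 2.5 times the rounding of the 15-digit values. Of 3325 genes with a sum from 60 to 400 normalised reads, 99.5% were resolved to 1 set of reads. Where several sets were possible and the deposited log2 ratio was beyond 0.5, a sole set in the deposited direction was taken. Every recovered member had exactly 1 possible set. Libraries were assigned to a genotype by which deposited value was higher among genes of 1 read. Recovery and tests were tested on simulated data. The changes planted there were of 3 on the log2 scale, far larger than the members' differences. The simulation therefore cannot say whether differences of the members' size would be found.

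Ratios of the 2 deposited values used no pseudocount and genes with a mean of at least 10. Recovered reads were fitted with limma 3.58.1 in R 4.3.3 (lmFit, eBayes) on log2(normalised reads + 1), KO minus WT, all genes together. No count model was run, since the reads of abundant genes could not be recovered. Named with values were members with a mean of at least 100, those with recovered reads and a sum of at least 60, and the 10 with the largest ratios; companions were given as counts. The members and lists were chosen with earlier results of these data known. The transcripts were those of GENCODE, the promoters those of RefSeq, both in GRCm38, and the library kit did not mark strand. Alternatives covered pseudocount, centring, filters, fold limit, scaling, a library term and leaving out each library. Python 3.11.15 was used. The values of 2 members are not reported here singly, and they are left out of the plots.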

Additional observations from a re-analysis of the deposited data

How the results depend on the processing

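Centring on the median of all genes (a shift of 0.05) moved the members' median log2 ratio from 0.04 to 0.089 and the number past 1.5-fold from 2 to 4, 3 higher and 1 lower, by adding *Slc22a3* (0.60) and *Slc22a5* (0.60), where 6.85% of all genes were past it. Centring also turned *Slc17a1* from -0.01 to 0.04 and *Slc17a5* from -0.0046 to 0.04. With a minimum mean of 1, and with none, the median was 0.048. At a limit of 2-fold the number was 0, where 0.897% of all genes passed. Leaving out 1 library at a time, limma called 0 to 1 of the 3307 genes, the 1 only without WT library a, with 26 to 152 at an unadjusted p under 0.05. That number was 63 with all libraries and 103 for sums from 30 to 400, 267 with no lower limit (1 of them a member, *Slc22a21*, adjusted p 0.964) and 242 with a term for the library of largest size factor. Of 88 fits of the 8 tested members, 0 had an adjusted p under 0.05 (lowest 0.844), and 7 changed sign. *Slc17a1* went to 0.12 with reads scaled to equal totals, which raised the members by 0.13 to 0.14. Leaving out 1 library at a time, *Slc17a1* ran from -0.33 to 0.29 (positive without WT library a, without KO library c at 0.24 and without KO library a at 0.04), *Slc22a15* from -0.15 to 0.22 (negative without WT library b and, at -0.03, without KO library b) and *Slc22a28* from -0.14, without WT library b, to 0.66. No paired analysis was possible because the pools of both genotypes share only the number 2 and the recovered libraries carry no number.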
